A study of Homo sapiens with 9 samples.

Results

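The mitochondrial genome encodes 7 subunits of complex I: ND1, ND2, ND3, ND4L, ND4, ND5 and ND6. They were taken as the 7 rows that the table of counts lists under the RefSeq protein identifiers of these subunits, out of 13 rows for mRNAs of the mitochondrial genome and 159067 transcripts in all. The rows were YP_003024026.1 for ND1, YP_003024027.1 for ND2, YP_003024033.1 for ND3, YP_003024034.1 for ND4L, YP_003024035.1 for ND4, YP_003024036.1 for ND5 and YP_003024037.1 for ND6. All 7 passed the filter on low counts and were tested in every comparison. The RNA came from U-87, an established human glioblastoma cell line, after 24 h in culture, and was sequenced from the 3′ ends of polyadenylated transcripts. There were 3 untreated control libraries. EA30 and EA45 were 1 library each of cells given evernic acid (EA), a lichen metabolite, at 30 or 45 µM, and TMZ600 was 1 library of cells given the alkylating drug temozolomide (TMZ) at 600 µM. EA35TMZ320, EA20TMZ380 and EA20TMZ580 were 1 library each of cells given both compounds, EA at 35, 20 and 20 µM and TMZ at 320, 380 and 580 µM. No treatment was replicated in these libraries. The study describes its experiments in general as independent repeats, but the labels do not say whether the 3 control libraries came from separate cultures. The p-values for single treatments and for steps between doses rest on the spread between 3 control libraries, which may be technical. Those for all treatments as 1 group, for the concentration terms and for count ratios also draw on the spread between treated libraries.

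Complex I, the NADH:ubiquinone oxidoreductase, is the entry point of the respiratory chain and pumps protons across the inner mitochondrial membrane. All mitochondrially encoded subunits sit in its membrane arm. ND2, ND4 and ND5 are the antiporter-like subunits that form proton channels, ND1 lies next to the site where ubiquinone binds, and ND3, ND6 and ND4L are small subunits that lie between ND1 and ND2. The mitochondrial genome is transcribed as long RNAs that are cut mostly at the tRNAs between the genes. ND4L and ND4 stay together on one RNA and share bases, and ND6 is the only mRNA read from the light strand and is known to lack a stable poly(A) tail.

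The 3′ ends of the coding sequences are shown because the libraries were primed at poly(A). Each is given 5′ to 3′ on its own strand, as the last 45 bases of the GENCODE v29 transcript on build GRCh38, with the bases of the complete or partial stop codon in capitals. These are exons of genes without introns. The labels name hg38 as the build.
ND1 (chrM:4218-4262, + strand): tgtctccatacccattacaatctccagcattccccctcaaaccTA
ND2 (chrM:5467-5511, + strand): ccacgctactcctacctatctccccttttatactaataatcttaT
ND3 (chrM:10360-10404, + strand): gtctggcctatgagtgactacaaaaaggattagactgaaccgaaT
ND4L (chrM:10722-10766, + strand): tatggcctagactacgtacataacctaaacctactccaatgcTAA
ND4 (chrM:12093-12137, + strand): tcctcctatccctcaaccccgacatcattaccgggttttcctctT
ND5 (chrM:14104-14148, + strand): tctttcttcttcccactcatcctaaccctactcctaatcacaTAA
ND6 (chrM:14149-14193, - strand): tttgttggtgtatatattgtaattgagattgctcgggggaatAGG
ND1, ND2, ND3 and ND4 end in 1 or 2 bases of a stop codon, which the poly(A) tail is known to complete to TAA, whereas ND4L, ND5 and ND6 end in 3 bases. ND6 ends on the opposite strand directly beside the end of ND5, with 0 bases between them. The start of ND4 overlaps the end of ND4L by 7 bases, shown in capitals with 25 bases on each side.
ND4L and ND4 (chrM:10735-10791, + strand): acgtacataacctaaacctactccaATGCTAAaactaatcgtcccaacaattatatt
The counting settings are not given in the sources used here, so whether reads over these 7 bases were given to one gene, both or neither is not known, and neither is whether strand was used. Without strand, reads of ND6 cannot be told apart from reads of RNA running the other way through it.

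The libraries held 259753 to 285248 counts in the controls and 213566 to 490235 in the treated samples, with EA35TMZ320 the shallowest and EA30 the deepest. The 13 mitochondrial mRNAs took 48.4 to 49.1% of all counts in the controls and 51.7 to 58.7% in the treated samples. By counting error alone, the share of a member among all counts was known to within 0.114 percentage points, and its share among the mitochondrial counts to within 0.1998 points (distance from the value to the end of its 95% Wilson interval, at its widest). Of 10 markers of astroglial or glioblastoma cells, 8 were listed at 0 in all libraries and 1, NES (nestin), could be tested. NES had 560 ± 42.3 CPM (counts scaled by TMM to a common library total, SD, n = 3) in the controls and 49.9 to 157 in the treated samples, a log2 fold change of -2.39 for the 6 treatments with an edgeR adjusted p of 0.000988. It was called lower in each of the 6 treatments, with log2 fold changes from -3.48 in EA45 to -1.84 in TMZ600. Its part in the changes below was not tested. Of 10 markers of other cell types, 9 were at 0 throughout, and the list summed to 0 counts in the controls and 0 to 1 in the treated samples.

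Taken as a sum, the ND genes held a larger part of the RNA in each treated library than in any control. Their share of all counts was 20.6, 21.6 and 21.5% in the controls. With EA alone it was 27.1% (EA30) and 25.7% (EA45), with the combinations 28.2% (EA35TMZ320), 29.2% (EA20TMZ380) and 28.0% (EA20TMZ580), and with TMZ600 22.7%. TMZ600, the only treatment without EA, lay closest to the controls. In bulk RNA, more mitochondrial RNA per cell and less nuclear mRNA per cell cannot be told apart. Within the mitochondrial counts the ND genes took 42.4, 44.6 and 43.8% in the controls. There they took 46.6% in EA30 and 46.9% in EA45, and in the combinations 51.4% (EA35TMZ320), 51.0% (EA20TMZ380) and 47.7% (EA20TMZ580). These 5 were all above the controls, while TMZ600 with 44.0% lay inside their range.

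**Figure D1:**
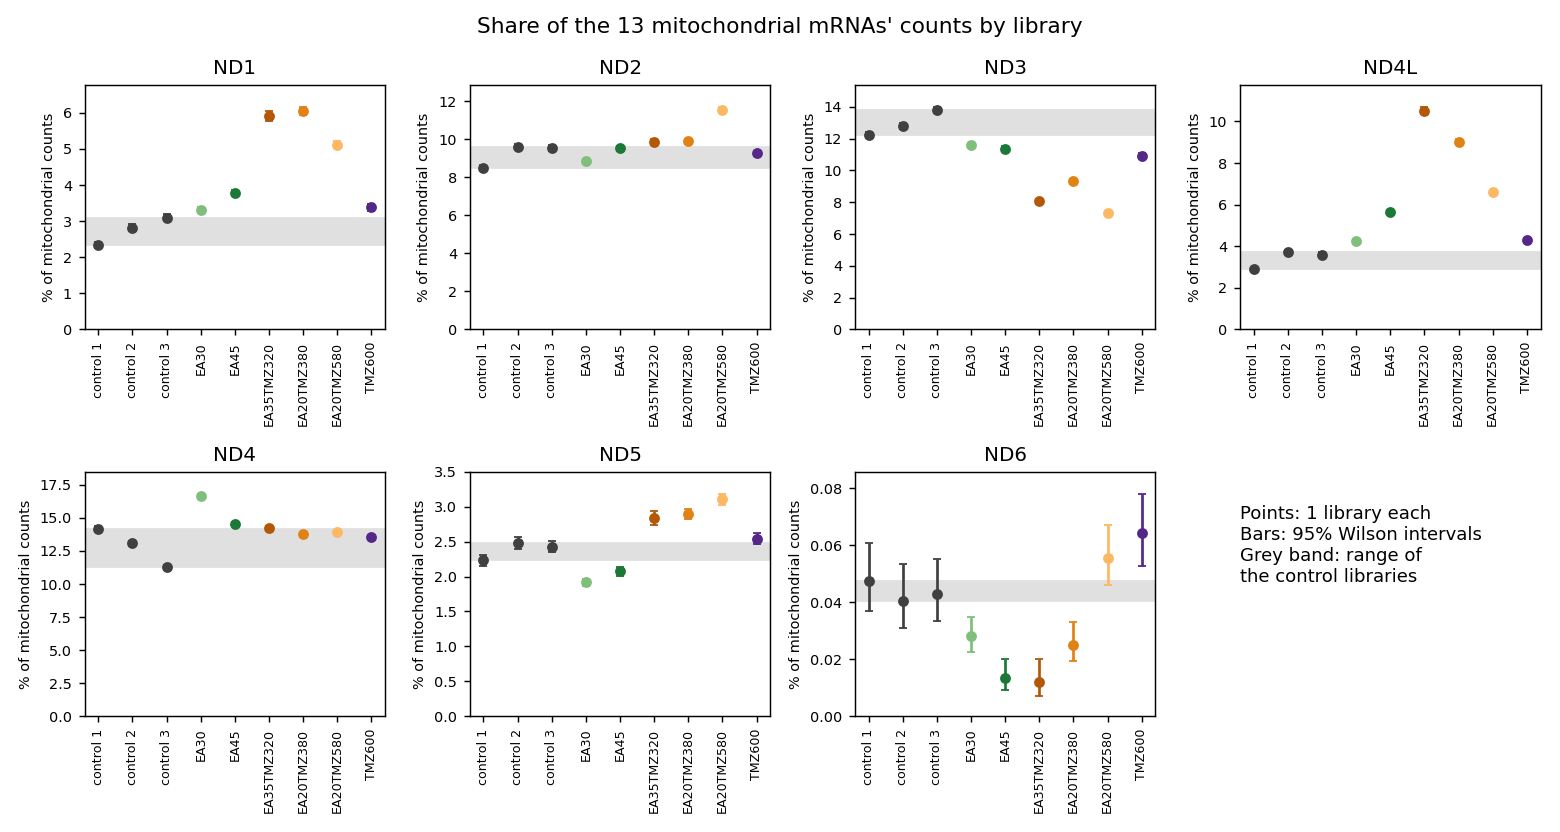
Share of each ND gene among the counts of the 13 mitochondrial mRNAs (percent, linear axis from 0) in the 3 controls and 6 treated libraries, with 95% Wilson intervals and the control range as a grey band. ND1 and ND4L lie above the band and ND3 below it in all 6 treated libraries, and ND6 lies below it in 4 and above it in 2.

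How many ND genes changed was asked first for each treatment, in 1 edgeR quasi-likelihood fit over the 9 libraries with TMM scaling, which sets the typical transcript level with the controls. Adjusted p-values are Benjamini-Hochberg values over the 618 transcripts tested, and a gene is called where its value is under 0.05. With EA30, 5 of 7 ND genes rose, against 17.3% of all transcripts called in either direction. With EA45, 4 rose and ND6 fell, against 38.8% of all transcripts called. With EA35TMZ320, all 7 were called, 5 of them higher and ND3 and ND6 lower, against 43.9%. With EA20TMZ380, 5 rose, against 24.9%. With EA20TMZ580, 5 rose and ND3 fell, against 23.1%. With TMZ600, 1 rose, ND4L, against 9.87% of all transcripts called. With this scaling the members were thus, in every treatment with EA, called more often than the average transcript, and no test of that difference was made. The comparison was not matched for depth. All members but ND6 had at least 2921 counts per library, while the filter let in transcripts averaging 10. With the filter raised to a mean of 50 counts, 60.1% of all transcripts were called in EA35TMZ320 and 55.0% in EA45. The members called there were still 7 and 5 of 7. Part of the difference may thus be one of depth.

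The median over the ND genes was a log2 fold change of 0.46 with EA30 and 0.45 with EA45. It was 0.49 with EA35TMZ320, 0.62 with EA20TMZ380 and 0.81 with EA20TMZ580, and 0.12 with TMZ600. The median over all 618 transcripts lay between -0.13 and -0.002 in the same comparisons. As 1 group, the 6 treatments differed from the controls in 2 ND genes, ND1 and ND4L, with 6.8% of all transcripts called. This group fit takes its spread also from the differences between treatments. The values that were not called were 0.48 for ND2 (edgeR adjusted p = 0.0827), 0.56 for ND4 (0.0545), 0.49 for ND5 (0.131), -0.03 for ND3 (0.930) and -0.05 for ND6 (0.948). Leaving out any of the 3 controls left 0 ND genes called, with 1.94 to 2.43% of all transcripts called, and leaving out TMZ600 gave 4, ND1, ND2, ND4L and ND4, with 10.4% called. In normalized counts, 3 ND genes, ND1, ND4L and ND5, were higher in all 6 treated libraries than in all 3 controls, a pattern shown by 8.09% of all transcripts. None of the 7 was lower in all 6, a pattern shown by 11% of all transcripts.

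**Figure D2:**
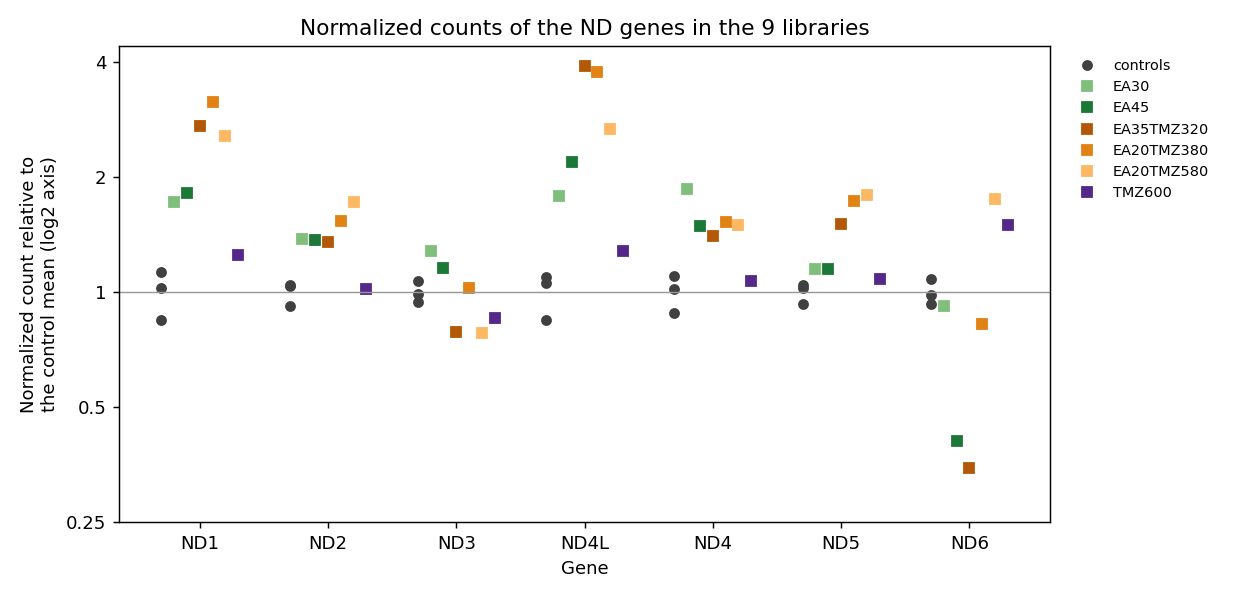
TMM-normalized counts (CPM) of each ND gene in each of the 9 libraries, divided by the mean of the 3 controls (log2 axis). ND1 and ND4L reach 3.14 and 3.91 times the control level in the combinations, while ND6 spreads from 0.35 in EA35TMZ320 to 1.75 in EA20TMZ580.

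ND1, the subunit beside the ubiquinone site, rose in all 5 treatments with EA and most with the combinations. It had 3067, 3542 and 4333 counts in the controls, which is 2.34, 2.82 and 3.09% of the mitochondrial counts. Among the treated libraries its share was 3.31% in EA30, 3.78% in EA45 and 3.38% in TMZ600, and the combinations had 5.91% (EA35TMZ320), 6.05% (EA20TMZ380) and 5.12% (EA20TMZ580). All 6 lay above the 3 controls, and the 3 combinations lay above both libraries of EA alone. On the TMM scale ND1 was 1.72-fold higher in EA30 (log2 fold change 0.78 ± 0.12 SE, edgeR adjusted p = 1.28e-06) and 1.82-fold higher in EA45 (0.86 ± 0.12, 6.21e-08). It was 2.72-fold higher in EA35TMZ320 (1.44 ± 0.11, 3.47e-14), 3.14-fold higher in EA20TMZ380 (1.65 ± 0.11, 1.69e-15) and 2.56-fold higher in EA20TMZ580 (1.35 ± 0.11, 7.11e-13). With total counts the log2 fold change of ND1 was 0.52 in EA30, 0.63 in EA45 and 1.16 to 1.37 in the combinations, and with the mitochondrial total it was 0.27, 0.46 and 0.90 to 1.14. In TMZ600 the log2 difference was 0.32 ± 0.12 with an adjusted p of 0.0823, and the adjusted p was 0.0242 when libraries were scaled to total counts and 0.0254 without control 3. Over the 6 treatments ND1 was higher by 1.14 ± 0.26 on the log2 scale (adjusted p = 0.0234), a call lost without any 1 of the controls.

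ND4L, a small subunit of the membrane arm next to ND2, showed the largest rises of the 7 genes in the combinations and was the only one called in all 6 treatments. Its counts were 3792, 4687 and 5043 in the controls, and its share of the mitochondrial counts was 2.90, 3.73 and 3.60%. The share was 4.27% in EA30, 5.64% in EA45 and 4.30% in TMZ600, against 10.5% in EA35TMZ320, 9.02% in EA20TMZ380 and 6.61% in EA20TMZ580. As for ND1, no treated library overlapped the controls and the combinations were highest. The rise was 1.79-fold in EA30 (log2 fold change 0.84 ± 0.11 SE, edgeR adjusted p = 1.09e-07) and 2.19-fold in EA45 (1.13 ± 0.11, 1.91e-11). It was 3.91-fold in EA35TMZ320 (1.97 ± 0.11, 2.80e-19), 3.78-fold in EA20TMZ380 (1.92 ± 0.11, 2.02e-18) and 2.67-fold in EA20TMZ580 (1.42 ± 0.11, 4.94e-14). In TMZ600 it was 1.28-fold (0.36 ± 0.11, adjusted p = 0.0321). This last call was lost with TMM factors from nuclear transcripts alone (adjusted p = 0.0862), with DESeq2's Wald test (0.217), with the filter raised to a mean of 50 counts, and without control 2 (0.160). Over the 6 treatments ND4L was higher by 1.38 ± 0.32 on the log2 scale (adjusted p = 0.0229), a call lost without any 1 of the controls.

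For both genes the combinations held lower concentrations of each compound than EA30 or TMZ600, except for EA in EA35TMZ320. The log2 fold change of ND1 was 1.65 in EA20TMZ380, beside 0.78 in EA30 and 0.32 in TMZ600. For ND4L it was 1.92 in EA20TMZ380, beside 0.84 in EA30 and 0.36 in TMZ600. The concentrations differ between these libraries, so no test of the combination against the single compounds was made.

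ND4L and ND4 lie on 1 RNA, with ND4L before ND4. Their counts were also compared within each library, where a ratio of counts does not depend on scaling. How reads primed at poly(A) came to be counted for ND4L was not tested, so the ratio need not be one of RNA levels. The ratio of ND4L to ND4 was 0.204, 0.284 and 0.319 in the controls. It was 0.256 in EA30, 0.389 in EA45 and 0.317 in TMZ600, and reached 0.740 in EA35TMZ320, 0.656 in EA20TMZ380 and 0.473 in EA20TMZ580. EA30 and TMZ600 lay inside the control range and the other 4 treatments above it. The mean log2 ratio of the 6 treated libraries exceeded that of the 3 controls by 0.73, with SDs of 0.60 and 0.34, and the 2-sided exact permutation test gave p = 0.119 (0.238 adjusted over the 2 ratios tested). The smallest p that 6 libraries against 3 allow is 0.0238. The intervals of control 1 (0.197 to 0.211) and control 3 (0.309 to 0.3297) did not overlap, so the controls differed by more than counting error.

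**Figure D3:**
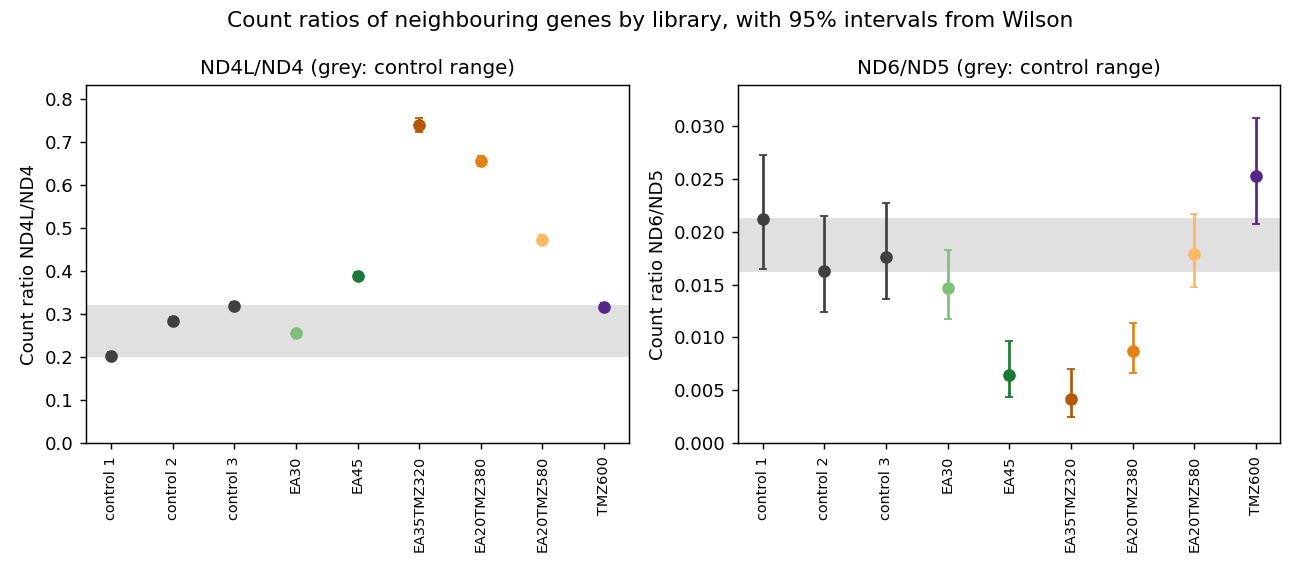
Count ratio of ND4L to ND4 (left) and of ND6 to ND5 (right) in each library, on linear axes from 0, with 95% intervals from Wilson's method and the control range in grey. The ND4L/ND4 ratio lies above the controls in 4 treated libraries, up to 0.740, and the ND6/ND5 ratio lies below them in 4, down to 0.00420, and above them in TMZ600.

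ND3, another small subunit of the membrane arm, was the member whose part of the mitochondrial RNA fell in each treated library. It took 12.2, 12.8 and 13.8% of the mitochondrial counts in the controls. It took 11.6% in EA30, 11.4% in EA45 and 10.9% in TMZ600. In the combinations it took 8.05% (EA35TMZ320), 9.32% (EA20TMZ380) and 7.35% (EA20TMZ580). All 6 were below the controls, as all 6 were for COX3 among the other mitochondrial mRNAs. The combinations were again farthest from the controls. Against all transcripts the picture was mixed. On the TMM scale ND3 rose in EA30 (log2 fold change 0.35 ± 0.09 SE, edgeR adjusted p = 0.00495) and fell in EA35TMZ320 (-0.35 ± 0.10, 0.00381) and EA20TMZ580 (-0.36 ± 0.10, 0.00581). Without control 2 none of the 3 was called (adjusted p = 0.202, 0.119 and 0.176), and the fall in EA20TMZ580 also lost its call without control 3 (0.0509) and without the filter on low counts (0.104). The log2 differences were 0.21 in EA45 (adjusted p = 0.0712), 0.04 in EA20TMZ380 (0.787) and -0.22 in TMZ600 (0.155). ND3 was called higher in EA45 with DESeq2 size factors (0.23, adjusted p = 0.0455) and with nuclear TMM (0.30, 0.0201), and lower in TMZ600 without control 1 (-0.27, 0.00558). Scaled to the mitochondrial total, the log2 fold change of ND3 was negative in all 6 treatments, from -0.82 in EA20TMZ580 to -0.16 in EA30. Its sign in EA30 was positive with TMM and with total counts (0.09, where it was not called, adjusted p = 0.495), and in EA45 and EA20TMZ380 it was positive with TMM and negative with total counts (-0.02 and -0.24).

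ND6, the light-strand gene, had the fewest counts of the 7 and lay on both sides of the controls. Its counts were 62, 51 and 60 in the controls, 80 in EA30 and 24 in EA45. The combinations had 14 (EA35TMZ320), 53 (EA20TMZ380) and 108 (EA20TMZ580), and TMZ600 had 101. As a share of the mitochondrial counts this was 0.0474, 0.0405 and 0.0428% in the controls, 0.0134% in EA45 (95% interval 0.00904 to 0.0200%) and 0.0119% in EA35TMZ320 (0.00711 to 0.0200%). EA20TMZ580 had 0.0556% (0.0461 to 0.0671%) and TMZ600 had 0.0643% (0.0529 to 0.0781%). EA20TMZ580 and TMZ600 thus lay above the controls, with intervals that overlapped those of each control. The other 4 treated libraries lay below the controls. ND6 fell in EA45 (log2 fold change -1.29 ± 0.41 SE, edgeR adjusted p = 0.00972) and in EA35TMZ320 (-1.52 ± 0.44, 0.00485). Neither fall was called by DESeq2's Wald test (adjusted p = 0.136 and 0.0963). The log2 differences were -0.12 in EA30 (adjusted p = 0.848), -0.28 in EA20TMZ380 (0.592), 0.58 in TMZ600 (0.329) and 0.81 in EA20TMZ580 (0.0710), where it was called with the filter at a mean of 50 counts. The SE of ND6 was 0.33 to 0.44, against 0.09 to 0.12 for the other members, so changes under about 1 log2 unit were hard to detect at this depth.

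The count ratio of ND6 to its neighbour ND5 was 0.0212, 0.0163 and 0.0176 in the controls. It was 0.0146 with EA30, 0.00648 with EA45 and 0.0253 with TMZ600, and the combinations gave 0.00420 (EA35TMZ320), 0.00871 (EA20TMZ380) and 0.0179 (EA20TMZ580). The ratio was below the controls in 4 treated libraries, inside their range in EA20TMZ580 and above it in TMZ600. The mean log2 ratio differed by -0.76 between the 6 treated libraries and the 3 controls, with SDs of 0.97 and 0.20 (2-sided exact permutation test, p = 0.286, adjusted over both ratios 0.286).

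The antiporter-like subunits ND2, ND4 and ND5 rose by less than ND1 and ND4L in most treatments, and their place within the mitochondrial RNA moved less. ND2 took 8.48 to 9.57% of the mitochondrial counts in the controls and 8.84 to 11.5% in the treated libraries, with a median of 9.69%. Only the 3 combinations exceeded the controls in this share. On the TMM scale ND2 rose in all 5 treatments with EA, from a log2 fold change of 0.44 ± 0.10 SE in EA35TMZ320 (edgeR adjusted p = 0.000220) to 0.79 ± 0.09 in EA20TMZ580 (8.95e-09). In TMZ600 its log2 difference was 0.03 (adjusted p = 0.884). With total counts ND2 was not called in EA30 (0.20, adjusted p = 0.138) or EA45 (0.22, 0.0627). Scaled to the mitochondrial total, ND2 was called only in EA20TMZ580 (0.33, adjusted p = 0.00548), and its sign in EA30 turned (-0.06, adjusted p = 0.670).

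ND4 rose in all 5 treatments with EA. It had 18575, 16480 and 15788 counts in the controls and took 11.3 to 14.2% of the mitochondrial counts, against 13.6 to 16.7% in the treated libraries, with a median of 14.1%. EA30, EA45 and, by a small margin, EA35TMZ320 lay above the controls. On the TMM scale ND4 rose 1.86-fold in EA30 (log2 fold change 0.89 ± 0.09 SE, edgeR adjusted p = 7.91e-10), beside 0.84 ± 0.11 for ND4L. The rise was 0.49 to 0.61 on the log2 scale in the other 4 treatments with EA, with adjusted p-values of at most 5.33e-05, and the difference was 0.10 in TMZ600 (0.607). Scaled to the mitochondrial total, ND4 was called only in EA30 (0.38, adjusted p = 0.00137).

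ND5, encoded by the longest of the 7 coding sequences (1812 bases), rose with the combinations. It had 2921, 3127 and 3402 counts in the controls. It took 2.23 to 2.49% of the mitochondrial counts in the controls, 1.92% in EA30 and 2.08% in EA45. The share was 2.54% in TMZ600, and 2.84, 2.89 and 3.11% in EA35TMZ320, EA20TMZ380 and EA20TMZ580. Both libraries of EA alone lay below the controls and the 4 libraries with TMZ above them. The log2 fold change on the TMM scale was 0.59 ± 0.12 SE in EA35TMZ320 (edgeR adjusted p = 4.44e-05), 0.79 ± 0.11 in EA20TMZ380 (5.43e-07) and 0.84 ± 0.11 in EA20TMZ580 (1.34e-07). In EA30 and EA45 the log2 differences were both 0.20 and were not called (adjusted p = 0.271 and 0.174), and that in TMZ600 was 0.12 (0.623). With the mitochondrial total the rise in EA35TMZ320 was not called (0.25, adjusted p = 0.0760). The EA30 and EA45 values were negative with total counts (-0.06 and -0.03) and with the mitochondrial total, where that of EA30 was called (-0.31, adjusted p = 0.0380).

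**Figure D4:**
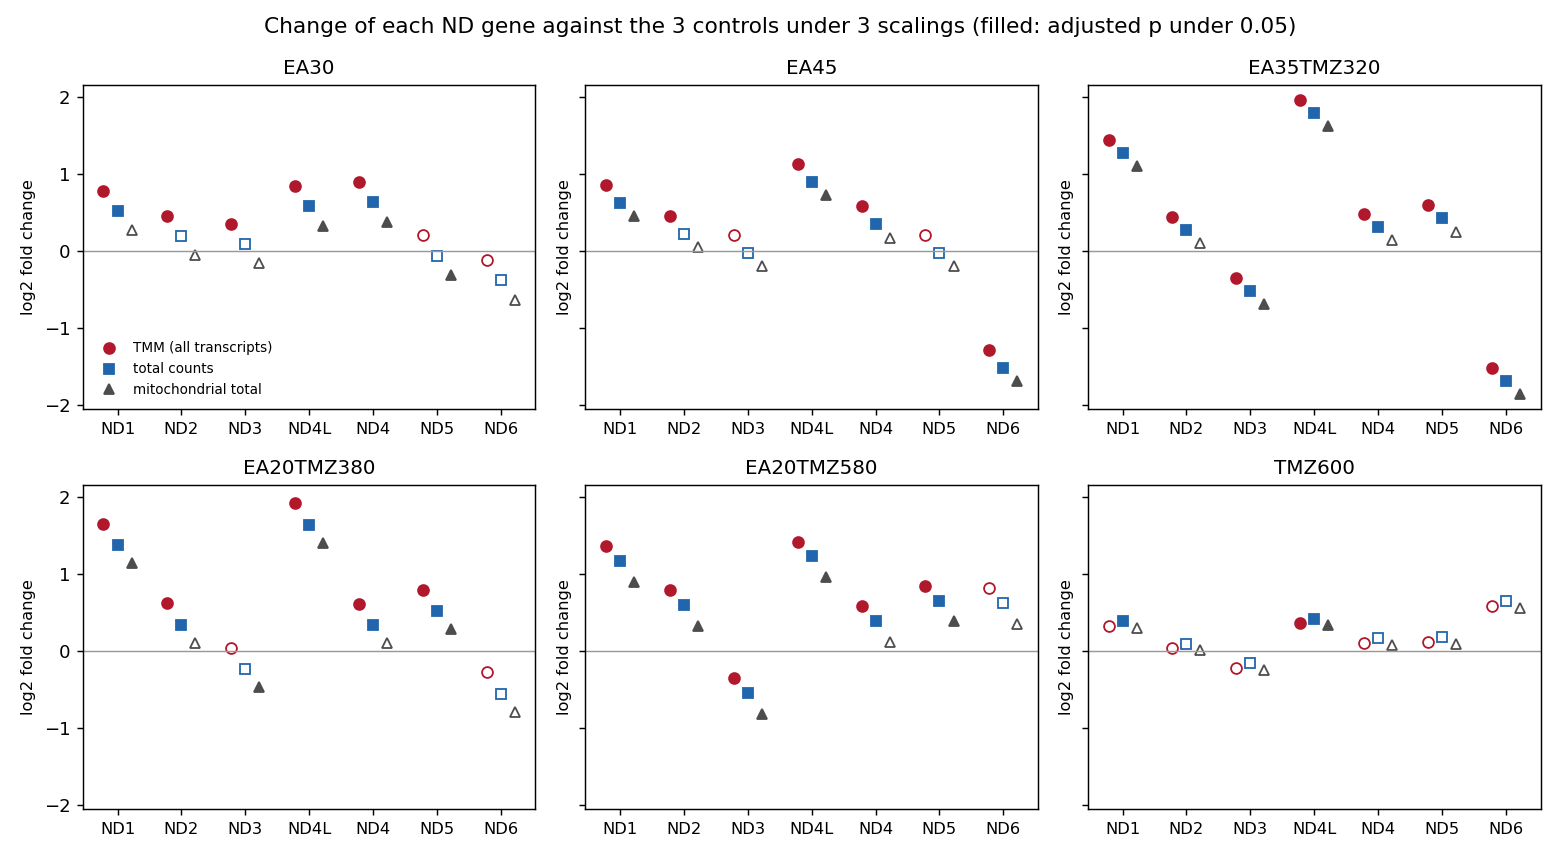
Log2 fold change of each ND gene against the 3 controls in each treatment, with libraries scaled by TMM over all transcripts (circles), to total counts (squares) or to the mitochondrial total (triangles). Filled symbols have an edgeR adjusted p under 0.05. ND1 and ND4L stay above 0 on the 3 scales in all 6 treatments, and ND3 changes sign between scales in EA30, EA45 and EA20TMZ380.

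What a rise of these genes is measured against changed how many were called. Scaling to total counts lowered the median log2 fold change of all transcripts by 0.17 to 0.28 in the treatments with EA, and scaling to the mitochondrial total lowered it by 0.34 to 0.52. With the mitochondrial total, ND4L and ND4 rose and ND5 fell in EA30 (33.2% of all transcripts were called in either direction), and ND1 and ND4L rose and ND6 fell in EA45 (43%). In EA35TMZ320, ND1 and ND4L rose and ND3 and ND6 fell (44%). In EA20TMZ380, ND1, ND4L and ND5 rose and ND3 fell (41.4%). In EA20TMZ580, ND1, ND2, ND4L and ND5 rose and ND3 fell (32.8%), and in TMZ600 ND4L rose (9.71%). The number of ND genes that rose was thus 2 in EA30 and in EA35TMZ320, against 5 in each with TMM. In EA45, 3 of 7 ND genes were called in either direction, about the share of all transcripts. ND4L was among those called in all 6 treatments on this scale, with log2 fold changes from 0.32 in EA30 to 1.62 in EA35TMZ320. ND1 was called on it in EA45 and the combinations and missed the threshold in EA30 (0.27, edgeR adjusted p = 0.0669) and TMZ600 (0.30, 0.0969).

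The dose question was asked with 1 linear term for each compound over the 9 libraries. Per 10 µM EA, with TMZ held equal, 4 ND genes rose, against 27.5% of all transcripts called in either direction. This term also takes in the difference between libraries with and without EA. From EA30 to EA45 alone, the log2 difference of these genes was 0.29 for ND4L, 0.08 for ND1, -0.31 for ND4 and -0.01 for ND2. The log2 change per 10 µM was 0.35 ± 0.07 SE for ND4L (edgeR adjusted p = 0.00172), 0.28 ± 0.06 for ND1 (0.00441), 0.17 ± 0.04 for ND4 (0.0107) and 0.13 ± 0.04 for ND2 (0.0274). ND3 and ND5 had changes of 0.03 ± 0.04 and 0.10 ± 0.05 that were not called (0.633 and 0.141). With total counts ND2 lost its call (adjusted p = 0.131), and with the mitochondrial total ND2 (0.698) and ND4 (0.224) lost theirs. The call of ND2 was also lost without any 1 of the controls (0.103, 0.0648 and 0.0628 without controls 1, 2 and 3), without EA45 (0.0808) and without TMZ600 (0.0833), and that of ND4 without control 3 (0.0548). ND6 had a change of -0.25 ± 0.10 that was not called (0.0734). This fall was called with total counts (0.0234), the mitochondrial total (0.00621) and DESeq2's Wald test (0.0425), and without EA30 (0.0286) or EA20TMZ580 (0.0355). Per 100 µM TMZ, with EA held equal, 0 ND genes were called by edgeR, against 3.72% of all transcripts. An unadjusted p under 0.05 was found for ND1, ND3, ND4L and ND5. The log2 change per 100 µM was 0.15 ± 0.04 for ND1 (adjusted p = 0.0528), 0.16 ± 0.05 for ND4L (0.0535), 0.09 ± 0.03 for ND5 (0.105) and -0.07 ± 0.03 for ND3 (0.190). It was 0.05 for ND2, 0.02 for ND4 and 0.12 for ND6, with adjusted p-values of at least 0.290. DESeq2's Wald test called 2, ND1 (0.0256) and ND4L (0.0228), and edgeR also called both with total counts, without the filter, and without EA35TMZ320. With the mitochondrial total the calls were ND1 (0.0493) and a fall of ND3 (-0.09, 0.0339), and without TMZ600 they were ND1, ND4L and ND5 (0.0101, 0.0122 and 0.0212).

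A higher dose was compared directly in a pair of steps that changed 1 compound. Between EA30 and EA45, edgeR called 0 ND genes, against 9.71% of all transcripts. An unadjusted p under 0.05 was found for ND4, ND4L and ND6. The log2 difference, EA45 minus EA30, was -0.31 ± 0.12 SE for ND4 (edgeR adjusted p = 0.0895), 0.29 ± 0.14 for ND4L (0.186) and -1.17 ± 0.46 for ND6 (0.0999), with 95% intervals of -0.55 to -0.08, 0.02 to 0.56 and -2.08 to -0.26. For ND1, ND2, ND3 and ND5 it was 0.08, -0.01, -0.14 and 0.001, with adjusted p-values of at least 0.485. Single alternatives made calls in this step. ND4L was called higher with the mitochondrial total (0.40, adjusted p = 0.0437) and without control 1 (0.0207), ND4 was called lower without control 1 (0.00295), and ND6 was called lower with the filter at 50 counts (0.0428). Between EA20TMZ380 and EA20TMZ580, 2 ND genes were lower at the higher TMZ concentration, against 8.09% of all transcripts called. ND4L differed by -0.50 ± 0.14 (adjusted p = 0.0205) and ND3 by -0.40 ± 0.12 (0.0299). Of the 10 alternatives, 5 ended the call of ND4L and 7 that of ND3. Neither gene was called with total counts (adjusted p = 0.0564 and 0.0962), DESeq2's Wald test (0.0563 for both), no filter (0.0526 and 0.280), the filter at 50 counts (0.124 and 0.113) or without control 2 (0.153 and 0.299), and ND3 was not called with the mitochondrial total (0.0541) or without control 3 (0.0568). Without control 1, ND1 was called lower too (0.0253). ND6 differed by 1.09 ± 0.43 in the other direction, which was not called (0.118). The differences of ND1 (-0.30), ND2 (0.17), ND4 (-0.03) and ND5 (0.05) were not called either, with adjusted p-values of at least 0.237.

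Levels of different genes were set side by side per kilobase of coding sequence, as counts per kilobase in 100 mitochondrial counts. ND3 was highest in the controls with 37.4 ± 2.27 (SD, n = 3). ND4L followed with 11.5 ± 1.503, ND4 with 9.33 ± 1.07 and ND2 with 8.83 ± 0.596. The control ranges of ND4L and ND4 overlapped, as did those of ND4 and ND2. ND1 with 2.88 ± 0.397, ND5 with 1.31 ± 0.0735 and ND6 with 0.0830 ± 0.00662 came last, each with all 3 controls below those of the gene before it. On the same scale ND4L reached 35.4 in EA35TMZ320, within the control range of ND3 (35.4 to 39.9). ND3 ran from 21.2 to 33.5 in the treated libraries. Counts from 3′ end libraries do not grow with length as whole-transcript counts do, so division by length places the short ND3 and ND4L high on this scale.

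The other 6 mitochondrial mRNAs, which encode cytochrome b and subunits of complexes IV and V, also moved. Of these 6, 4 were called higher and 1 lower in EA30, EA45 and EA20TMZ380 alike, 3 higher and 1 lower in EA35TMZ320, 4 higher in EA20TMZ580 and 1 higher in TMZ600. Their median log2 fold change was 0.54 with EA30 and 0.42 with EA45. With the combinations it was 0.08 (EA35TMZ320), 0.37 (EA20TMZ380) and 0.39 (EA20TMZ580), and with TMZ600 it was 0.05. The median of the ND genes was lower than this in EA30 and higher in the other 5 treatments. Within the mitochondrial counts COX3, ATP8 and ATP6 had lower mean shares in the treated than in the control libraries, as ND3 and ND6 had. The means over 3 controls and 6 treated libraries were 27.0 and 21.3% for COX3, 4.25 and 2.06% for ATP8, and 4.22 and 3.93% for ATP6. CYTB and COX1 had higher mean shares, 10.2% and 4.41% in the treated libraries against 8.23% and 2.68% in the controls. The share of COX3 lay below all 3 controls in 6 treated libraries, as for ND3, and that of ATP8 in 5. Those of CYTB and COX1 lay above all 3 controls in 5, beside 6 for ND1 and ND4L. ATP6 lay below in 4 and above in 2, and COX2 lay below in 2.

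The nuclear genes that complete or build complex I were hardly covered. Of 37 nuclear subunit genes found in the table, 32 were listed at 0 in all libraries and 1 could be tested, NDUFS6, an accessory subunit of the peripheral arm. The controls averaged 2245 ± 124 CPM for NDUFS6 (SD, n = 3), and it rose in EA20TMZ380 (log2 fold change 0.56 ± 0.15 SE, edgeR adjusted p = 0.00401) and TMZ600 (0.46 ± 0.15, 0.0384). It was not called in the other 4 treatments, where its values ran from -0.08 to 0.39. Of 17 assembly factors, 14 were at 0 and 1 was tested, NDUFAF3, with 27.3 ± 4.27 CPM in the controls. NDUFAF3 rose in EA45 (1.71 ± 0.58, adjusted p = 0.0161) and by 0.35 ± 0.10 per 10 µM EA (0.0221). Of 26 genes found for mitochondrial transcription and RNA processing, 20 were at 0 and 1 was tested, MTERF4, which was called in none of the 11 comparisons (log2 differences between -0.82 and 0.64). Genes that every cell uses are also listed at 0 in this table, so a 0 was not read as absence.

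Likeness was measured as the root mean square difference of log2 CPM over the 9 libraries after centring each transcript on its mean, over 618 transcripts. The closest pair within the family was ND2 and ND5 (0.147), followed by ND1 and ND4L (0.176), and the most distant was ND4L and ND6 (1.24). The transcript most like ND1 was COX1 (0.119), and the most like ND4 was COX2 (0.122) before CYTB (0.156). The nearest to ND4L were ND1 and COX1 (0.225), and the nearest to ND2 after ND5 was SLC35G6 (0.152). ND3 lay nearest to STRCP1 (0.143) and to XM_011528764.2 (0.161), which had no symbol. ND5 lay nearest to BST2 (0.132), before ND2. LOC101929536 (0.206) and LOC107984211 (0.263) were the nearest to ND6, and ND3 (0.775) was the nearest within the family. ATP8, like ND6, had its lowest share of the mitochondrial counts in EA35TMZ320. Among the treated libraries, the share of both was highest in TMZ600. ND4 and ND4L, from the same RNA, differed by 0.584, more than ND4 differed from ND2 (0.199) or ND5 (0.2996). These distances share the libraries and their scaling and are descriptions.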

How the data were processed

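U-87 RNA was measured in 9 libraries made from transcript 3′ ends. The table deposited by the authors holds whole-number counts for each RefSeq transcript, with no normalization. The submitters' processing notes name HISAT2, HTSeq and hg38, with versions and settings not given in the sources used here. Groups were taken from the sample labels. Shares were computed over all counts and over the 13 mitochondrial mRNAs. Transcripts averaging 10 counts or more (618) were fitted with edgeR 4.0.16 in R 4.3.3 (TMM, quasi-likelihood F-test, Benjamini-Hochberg, threshold 0.05), with 1 coefficient per condition over 9 libraries, so that the spread came from the controls (2 residual degrees of freedom, 38.8 prior). A fit of 6 treatments against 3 controls and a model with a term per 10 µM EA and per 100 µM TMZ were added. SEs are the log2 fold change over the square root of F. Ratios were compared by exact permutation (scipy 1.17.1). The fits were tested on simulated data. Symbols came from RefSeq for 114056 transcripts; the other 45011 held 4.63% of counts. Intervals cover counting error only. Alternatives were DESeq2 size factors, total counts, TMM over nuclear transcripts, the mitochondrial total, the Wald test of DESeq2 1.42.0, no filter, a filter at 50 counts, and leaving out each library. All 7 members are named in each comparison, and every gene with a tested transcript in the lists is named. The members, lists and tests were chosen with earlier results of these data known.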

Additional observations from a re-analysis of the deposited data

How the results depend on the processing

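No paired analysis was possible because each treatment has 1 library, so that no treatment shares more than 1 replicate number with the controls. Of 896 repeats of single-gene values, 771 kept their direction and side of the threshold, 50 lost a call, 33 gained one and 42 changed sign. The number of ND genes called is given here with the share of all transcripts called under the same setting. With total counts it was 3 in EA30 (22.0%), 2 in TMZ600 (11.3%), 2 for the TMZ term (3.88%) and 0 for EA20TMZ580 against EA20TMZ380 (6.80%). With the mitochondrial total it was 3 in EA30 (33.2%), 3 in EA45 (43.0%), 4 in EA35TMZ320 (44.0%), 2 for the TMZ term (4.85%), 1 for EA45 against EA30 (10.8%) and 1 for EA20TMZ580 against EA20TMZ380 (7.44%). In TMZ600 it was 0 with nuclear TMM (8.90%), the Wald test (3.72%) and the filter at 50 counts (15.4%). For the TMZ term it was 2 with the Wald test (6.96%) and with no filter (0.513%). For EA20TMZ580 against EA20TMZ380 it was 0 with the Wald test (0.485%), no filter (0.274%) and the filter at 50 counts (4.18%), and for EA45 against EA30 that filter gave 1 (18.3%). Among the settings with all libraries, smaller moves were to 6 in EA45 with DESeq2 size factors (38.7%) and nuclear TMM (38.2%) and to 4 with the Wald test (18.4%) and total counts (39.97%), to 6 in EA35TMZ320 with the Wald test (24.3%), to 4 in EA20TMZ380 with the mitochondrial total (41.4%), to 5 in EA20TMZ580 with no filter (1.59%) and the mitochondrial total (32.8%) and to 7 with the filter at 50 counts (33.8%). The EA term had 5 with the Wald test (31.2%) and 3 with the mitochondrial total (33.2%), and the 6 treatments had 3 with the Wald test (14.9%) and no filter (0.957%). Leaving out 1 library gave 0 to 2 calls in TMZ600 (6.76 to 13.4% of all transcripts), 0 to 4 for the 6 treatments (1.94 to 10.4%), 2 to 5 for the EA term (9.85 to 31.2%), 0 to 3 for the TMZ term (1.13 to 5.67%), 0 to 2 for EA45 against EA30 (9.66 to 16.6%) and 0 to 3 for EA20TMZ580 against EA20TMZ380 (5.31 to 12.3%). The 0 came without control 2 in TMZ600 and EA20TMZ580 against EA20TMZ380, and without any 1 of the controls for the 6 treatments. The TMZ term had 3 without TMZ600 and 2 without EA35TMZ320, EA45 against EA30 had 2 without control 1, TMZ600 had 2 without control 1 or 3, and EA20TMZ580 against EA20TMZ380 had 1 without control 3. Log2 values that changed sign with the mitochondrial total were ND2 (-0.0565), ND3 (-0.16) and ND5 (-0.31) in EA30, ND3 (-0.19) and ND5 (-0.20) in EA45, ND3 (-0.47) in EA20TMZ380, ND3 (-0.0858) and ND5 (-0.0158) in the EA term, ND4 (-0.00107) in the TMZ term, ND2 (0.11) in EA45 against EA30 and ND4 (0.0222) in EA20TMZ580 against EA20TMZ380. With total counts they were ND5 (-0.058) in EA30, ND3 (-0.0199) and ND5 (-0.0296) in EA45, ND3 (-0.24) in EA20TMZ380, ND3 (-0.037) in the EA term, ND2 (0.021) in EA45 against EA30 and ND4 (0.0562) in EA20TMZ580 against EA20TMZ380. With the filter at 50 counts they were ND3 in EA20TMZ380 (-0.0368), ND2 in TMZ600 (-0.00165), and ND1 (-0.0346) and ND5 (-0.11) in EA45 against EA30, where ND5 also turned with no filter (-0.0335). With nuclear TMM they were ND3 over the 6 treatments (0.0319), ND2 in EA45 against EA30 (0.0162) and ND5 in EA20TMZ580 against EA20TMZ380 (-0.0329). DESeq2 size factors and the Wald test turned ND2 in EA45 against EA30 (0.00569) and ND5 in EA20TMZ580 against EA20TMZ380 (-0.000321). Over the libraries left out, ND3 ran from -0.00769 to 0.0824 in EA20TMZ380, ND2 from -0.0331 to 0.0581 in TMZ600, ND5 from -0.0142 to -3.05e-05 in EA45 against EA30, and over the 6 treatments ND3 from -0.13 to 0.0693 and ND6 from -0.27 to 0.12. ND6, with 14 to 108 counts, sets the limit of depth.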
